A study of Homo sapiens with 28 samples.

Results

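Autophagy and ubiquitin stress genes were examined in 4 human multiple myeloma cell lines treated with arsenicals. The 9 genes are *SQSTM1*, *MAP1LC3B*, *GABARAPL1*, *GABARAPL2*, *ULK1*, *WIPI1*, *VCP*, *NPLOC4* and *UBB*, out of 19775 genes read on the arrays. They are read by the probe sets whose annotation names one of these genes and no other gene, 17 of 54675 probe sets, and all 17 passed the filter on low values. A probe set is a group of short probes that reads one transcript region, and *SQSTM1* has 5 of them. *GABARAPL1*, *MAP1LC3B*, *WIPI1* and *VCP* have 2 each, and the other 4 genes have 1 each.

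The study measured total RNA of U266, MM.1s, KMS11 and 8226/S cells on 28 Affymetrix human expression arrays. Arsenic trioxide (ATO), an inorganic arsenical, was given at 2 µM in every line and read at 6, 24 and 48 h. Darinaparsin (DAR), an organic arsenical built on glutathione, was read at 6 and 24 h at a dose set for each line (8226/S received 2 µM, KMS11 and MM.1s 3 µM, and U266 4 µM). Each line has 1 array per treatment and a pair of untreated arrays, numbered control 1 and control 2 and taken at 0 h. ATO arrays were set against control 2 and DAR arrays against control 1 of the same line, a pairing that the labels do not state. All 20 treated arrays correlated more strongly with that control than with the other one of their line. The lines are established plasma cell tumour lines grown in serum-containing medium.

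Autophagy wraps cargo in a double membrane and delivers it to the lysosome. *ULK1* encodes the kinase that starts the process, and *WIPI1* a protein that reads the lipid mark laid on the growing membrane. *MAP1LC3B*, *GABARAPL1* and *GABARAPL2* encode ATG8 proteins, ubiquitin-like proteins that are coupled to the membrane itself. *SQSTM1* encodes p62, a receptor that binds ubiquitin-tagged cargo and ATG8 proteins, and it also sequesters KEAP1, the inhibitor of the oxidative stress factor NRF2. *UBB* encodes polyubiquitin, a stress-inducible source of free ubiquitin. *VCP* encodes p97, an ATPase that pulls ubiquitin-tagged proteins out of membranes and complexes, and *NPLOC4* is its ubiquitin-binding cofactor. Plasma cells make large amounts of antibody and rely on both the proteasome and autophagy to clear misfolded protein.

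Values are array intensities that share 1 trimmed mean over all arrays, and changes are differences of log2(value + 29), a scale that understates the change of dim genes. Array medians lay between 65.5 and 109 in the 12 arrays of the control 1 set and between 111 and 147 in the 16 arrays of the control 2 set. Plasma cell markers matched the label, with 5 of 7 (*SDC1*, *TNFRSF17*, *PRDM1*, *IRF4* and *XBP1*) above the array median on all 28 arrays, *CD38* on 17 and *MZB1* on 26. Summed plasma cell marker intensity ranged from 21514 to 93584. Sums of the T cell (74 to 608), myeloid (48 to 337), B cell (64 to 1272), fibroblast (136 to 1447) and erythroid (54 to 2300) markers were far lower, over 1 to 3 measured genes each. Of these genes *CD14* and *CD3G* were above the median on no array, *CD3D* on 2, *LYZ* on 3, *PAX5* on 10, *CSF1R* on 11 and *CD3E* on 15. *MS4A1* was above it on 16, *COL1A2* on 20, *DCN* on 21, *COL1A1* on 22 and *HBB*, the 1 erythroid gene read, on 26. Fewer cells and less RNA per cell cannot be told apart, since equal amounts of RNA were labelled. The labels do not say whether arrays came from separate cultures, so p-values measure the spread between these arrays. Since untreated cells were taken at 0 h, time in culture cannot be told apart from treatment.

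To show the regions from which these genes start, RefSeq promoter windows (GRCh38.p14, 250 bases before to 50 after a start) were searched for 5 stress-related motifs on both strands. All 9 genes had an entry, with 13 windows in all. Printed here are the receptor gene *SQSTM1* and the 3 genes called after 6 h of ATO whose windows held a match. Each is shown as the 250 bases before an annotated start, 5′ to 3′ on the gene's strand, with matched motif bases in capitals. They lie at chr5:179820655-179820904 (plus strand) for *SQSTM1*, chr12:10212627-10212876 (plus) for *GABARAPL1*, chr16:87392086-87392335 (plus) for *MAP1LC3B* and chr9:35072626-35072875 (minus) for *VCP*.
SQSTM1: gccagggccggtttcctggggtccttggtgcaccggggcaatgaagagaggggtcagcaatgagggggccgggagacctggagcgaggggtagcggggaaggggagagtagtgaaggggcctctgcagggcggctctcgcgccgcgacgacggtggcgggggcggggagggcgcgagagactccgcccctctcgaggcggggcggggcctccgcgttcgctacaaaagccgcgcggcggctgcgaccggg
GABARAPL1: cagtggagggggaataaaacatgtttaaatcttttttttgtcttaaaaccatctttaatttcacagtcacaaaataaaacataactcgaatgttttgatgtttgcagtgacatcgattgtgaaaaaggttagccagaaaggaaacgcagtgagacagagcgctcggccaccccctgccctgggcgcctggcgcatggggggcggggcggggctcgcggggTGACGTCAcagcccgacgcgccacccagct
MAP1LC3B: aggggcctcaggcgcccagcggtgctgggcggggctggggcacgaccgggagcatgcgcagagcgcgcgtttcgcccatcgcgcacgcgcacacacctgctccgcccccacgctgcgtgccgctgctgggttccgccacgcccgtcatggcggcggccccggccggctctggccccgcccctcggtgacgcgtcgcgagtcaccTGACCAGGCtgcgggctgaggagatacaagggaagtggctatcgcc
VCP: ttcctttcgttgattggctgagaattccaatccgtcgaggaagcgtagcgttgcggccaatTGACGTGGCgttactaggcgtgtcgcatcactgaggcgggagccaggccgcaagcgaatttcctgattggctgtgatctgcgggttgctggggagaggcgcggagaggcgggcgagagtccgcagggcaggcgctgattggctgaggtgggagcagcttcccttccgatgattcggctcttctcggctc

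*GABARAPL1* held a cAMP response element (TGACGTCA), with its first base 30 bases before the start. *MAP1LC3B* held an antioxidant response element (TGACNNNGC) 46 bases before the start, and *VCP* held one 189 bases before it. *UBB* also held an antioxidant response element, and *GABARAPL2* a heat shock element (GAANNTTC). Neither the E-box (CACGTG) nor the C/EBP-ATF response element (TGATGNAA) was found in any of the 13 windows. No motif of the 5 was found in the windows of *SQSTM1*, *WIPI1*, *ULK1* and *NPLOC4*. Of all 35116 windows, 13.3% held the antioxidant element, 6.77% the heat shock element, 1.85% the cAMP response element, 3.62% the C/EBP-ATF element and 7.26% the E-box. No matched stretch overlapped that of another motif. A match is a description of letters, not of a bound site.

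After 6 h of ATO 6 of the 9 genes rose, after 24 h 5 and after 48 h 4, and 0 fell at any of the 3 times. At 6 h the called genes were *SQSTM1*, *GABARAPL1*, *MAP1LC3B*, *ULK1*, *VCP* and *NPLOC4*. By 24 h *NPLOC4* was no longer called, and by 48 h *VCP* was not called either. A call means an adjusted p under 0.05 in limma over 15437 genes. Among all genes, 3.78% were called higher and 2.64% lower at 6 h, 2.73% and 2.27% at 24 h, and 6.35% and 5.38% at 48 h. Centring each array on its median turned the counts at 48 h of ATO from 981 higher and 831 lower into 491 and 914. The 3 ATO comparisons share the same control 2 arrays. In DAR, 4 of 9 genes rose at 6 h (*SQSTM1*, *GABARAPL1*, *MAP1LC3B* and *UBB*) and 0 fell, beside 6.85% of all genes called higher and 6.34% lower. Median centring turned those counts from 1057 and 979 into 692 and 1154. At 24 h of DAR 0 of 9 were called, beside 0.492% higher and 0.13% lower of all genes. At that time 3 of the 9 had an unadjusted limma p under 0.05, beside 2280 of all 15437 genes. A fit that left out the pairing by line called 1, 0 and 0 members at the 3 ATO times and 1 at 6 h of DAR, *SQSTM1* both times. Median changes of the 9 were 0.58, 0.35 and 0.51 after 6, 24 and 48 h of ATO and 0.31 and 0.06 after 6 and 24 h of DAR, against 0 to 0.06 over all genes.

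**Figure D1:**
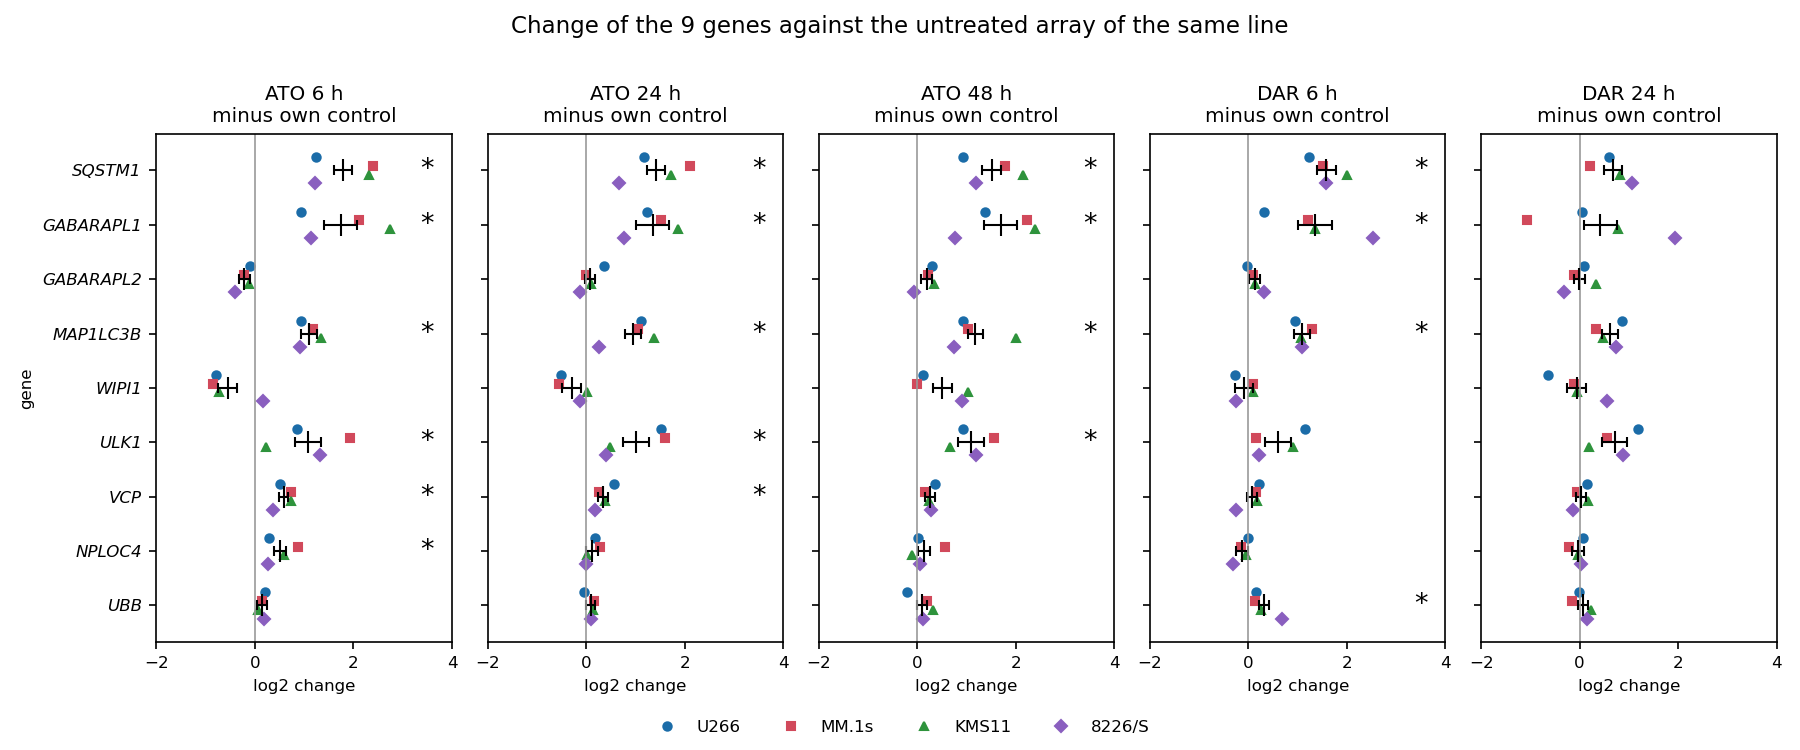
Log2 change of each of the 9 genes (rows) in each line (coloured points) for the 5 treatments (panels), against the untreated array of the same line. The black bar is the fitted mean with its standard error and an asterisk marks an adjusted p under 0.05: 6, 5, 4, 4 and 0 genes from left to right.

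*SQSTM1*, the ubiquitin-binding receptor, rose after 6 h of each arsenical. On the brightest probe sets its fitted change was the largest of the 9 genes at that time, while on the mean of all probe sets *GABARAPL1* was above it after ATO (1.88 against 1.23). Its control 2 intensities were 8764 in U266, 4655 in MM.1s, 3846 in KMS11 and 5713 in 8226/S. After 6 h of ATO they were 20556, 24666, 19358 and 13270 in the same order. Every treated array thus lay above every untreated one, and MM.1s, below U266 and 8226/S before, was the highest line. The change was 1.79 ± 0.19 (SE, n = 4 lines; 95% interval 1.40 to 2.18; adjusted p = 1.97e-06), a 3.46-fold rise. At 24 h the intensities were 19707, 20226, 12863 and 9021, and at 48 h 16649, 16185, 17013 and 13140. Both later groups stayed above all untreated arrays, with changes of 1.42 ± 0.19 and 1.51 ± 0.19. Changes at 6 h ranged from 1.21 in 8226/S and 1.23 in U266 to 2.32 in KMS11 and 2.40 in MM.1s, with 1 array per line. A difference between lines over the ATO times was not called (limma F test, adjusted p = 0.406).

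Under DAR, *SQSTM1* rose from 8489, 4054, 3833 and 4754 in control 1 to 19768, 11718, 15529 and 14221 at 6 h, in the order U266, MM.1s, KMS11 and 8226/S. The groups did not overlap, and the change was 1.58 ± 0.19 (adjusted p = 7.24e-06). At 24 h the intensities had come down to 12913, 4716, 6759 and 10026, which overlap the untreated arrays. That remaining change of 0.68 ± 0.19 was not called (adjusted p = 0.094), although all 4 lines were above their control. On the mean of the 5 probe sets it was called, at 0.97 (limma adjusted p = 0.0226). The drop from 6 to 24 h of DAR was called at -0.91 ± 0.19 (adjusted p = 0.00398), with all 4 lines lower. *SQSTM1* was the one member of 9 called in that comparison, beside 7.67% of all genes. Its 6 h calls for both arsenicals held without each line in turn. The drop held so too, but was not called on the mean of the 5 probe sets (-0.34).

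Probe sets of *SQSTM1* did not move alike. The brightest one, described above, read at least 3833 on every array, while 213112_s_at read 222, 294, 14.5 and 170 in control 2 and 1240, 6212, 1456 and 621 after 6 h of ATO. That is a change of 3.35 ± 0.37, larger than on the brightest probe set, and the KMS11 control of 14.5 lies far below the array medians. After 6 h of DAR the same probe set read 713, 949, 923 and 799 against 211, 315, 157 and 196 in control 1, a change of 1.84 ± 0.37. At 24 h of DAR its change of 1.08 ± 0.37 was not called (adjusted p = 0.166).

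Probe set 244804_at showed the other order. It read 341, 354, 307 and 232 in control 1, 740, 1732, 1250 and 2515 after 6 h of DAR, and 636, 2093, 1233 and 3269 after 24 h. The DAR arrays lay above all untreated ones at both times, highest in 8226/S and lowest in U266. The changes of 2.12 ± 0.31 and 2.22 ± 0.31 were both called, and the 24 h call was lost without 8226/S. Without that line the fit on genes called 0 higher and 0 lower at 24 h of DAR, against 76 and 20 with all lines. Over the omissions and settings tried the 24 h change ranged from 1.74 to 2.68. With ATO its changes were 1.18 ± 0.31, 0.67 ± 0.31 and 0.95 ± 0.31 at 6, 24 and 48 h, called at 6 and 48 h. Those ATO calls did not hold without MM.1s or KMS11, nor at 48 h without U266, with values from 1.01 to 1.39 at 6 h and from 0.60 to 1.29 at 48 h.

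The tested difference between the arsenicals (DAR change minus ATO change) was 1.55 ± 0.43 at 24 h for 244804_at, higher in all 4 lines, and -1.98 ± 0.52 for 213112_s_at, lower in all 4 lines. Neither was called over 29673 probe sets (adjusted p = 0.193 and 0.148), where 2.78% and 0.212% of probe sets were called in either direction at 6 and 24 h. The remaining pair of probe sets, 239004_at and 242568_s_at, were called in none of the 5 treatments, with changes between -0.41 and 0.51. Of this pair 242568_s_at was dim, above the array median on 9 arrays against 26 for 239004_at. It read 16 to 73 in control 1, where the scale understates changes, so its missing calls do not show that it stayed level. The mean over all *SQSTM1* probe sets, given above, includes this dim one. Among all probe sets, 2.98%, 1.98% and 4.71% were called higher after 6, 24 and 48 h of ATO, and 6.63% and 0.63% after 6 and 24 h of DAR. Where on the gene each probe set lies was not analysed here.

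**Figure D2:**
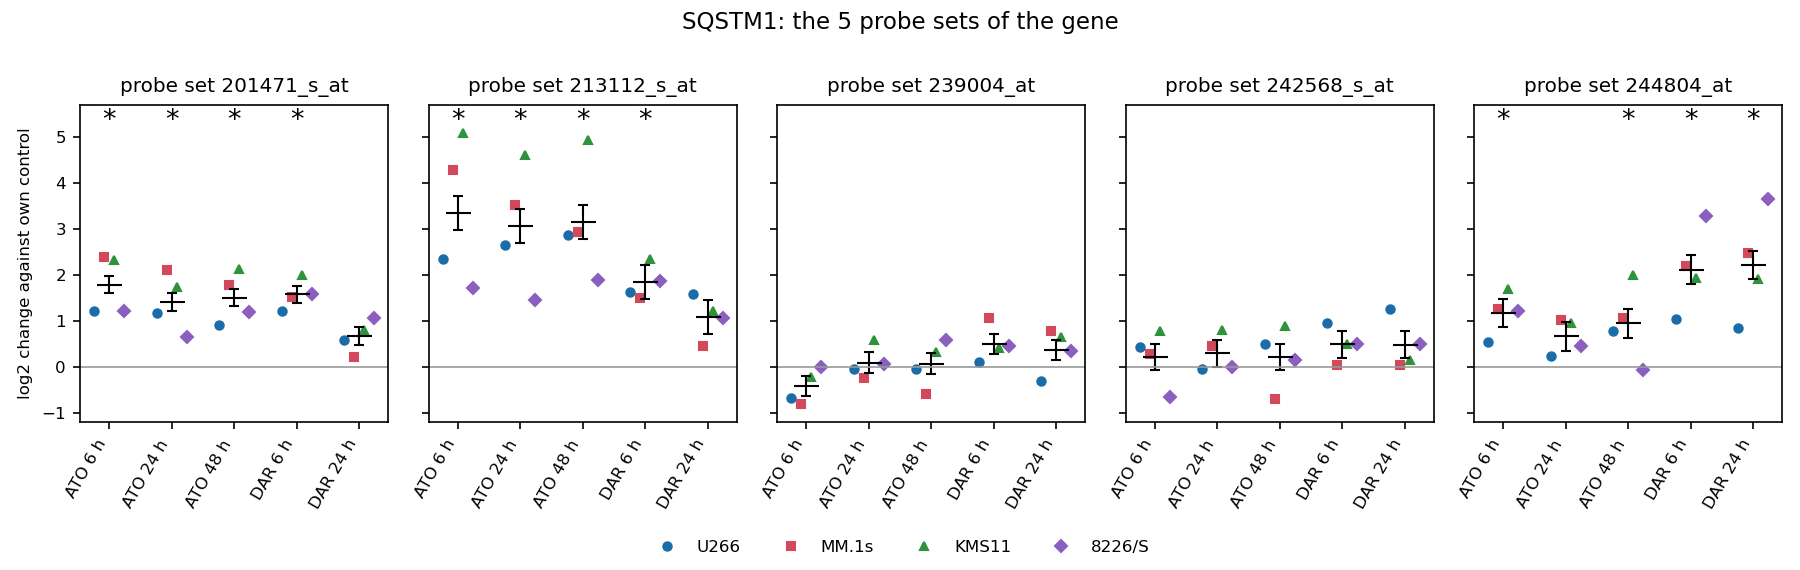
Log2 change of the 5 *SQSTM1* probe sets (panels) under the 5 treatments, per line (coloured points), with the fitted mean and its standard error in black and an asterisk for an adjusted p under 0.05. The set 213112_s_at is highest under ATO (3.35 at 6 h) and 244804_at under DAR (2.22 at 24 h). Fitted means of 239004_at and 242568_s_at stay between -0.41 and 0.51, with single lines from -0.79 to 1.27. The set 242568_s_at was dim, above the array median on 9 arrays.

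*MAP1LC3B*, which encodes LC3B, rose after every ATO time and after 6 h of DAR. Control 2 intensities were 4339 in U266, 2084 in MM.1s, 2662 in KMS11 and 1225 in 8226/S. After 6 h of ATO they were 8280, 4724, 6833 and 2332. Each line was higher than its own control, but the groups overlap because U266 starts high and 8226/S low. The fitted changes were 1.09 ± 0.16 at 6 h (adjusted p = 0.000166), 0.95 ± 0.16 at 24 h and 1.18 ± 0.16 at 48 h. KMS11 reached 10786 at 48 h, a change of 2.01, and 8226/S was near its control at 24 h, with 1483.

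The DAR response of *MAP1LC3B* at 6 h was as large, from 7138, 2075, 3543 and 1634 to 13708, 5117, 7419 and 3491. All 4 lines moved by similar amounts, between 0.94 and 1.29, and the change was 1.09 ± 0.16. At 24 h of DAR the change was 0.61 ± 0.16 (adjusted p = 0.079), not called, with all 4 lines above control. Its second probe set gave 0.82, 0.90 and 0.99 after ATO and 0.66 after 6 h of DAR, all called. These calls, on both probe sets, held without each line in turn.

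*GABARAPL1*, another ATG8 gene, was dim in 8226/S and clearly present in the other lines. Control 2 intensities were 410 in U266, 380 in MM.1s, 229 in KMS11 and 88 in 8226/S. At 6 h of ATO they were 813, 1748, 1703 and 227, at 24 h 1009, 1146, 906 and 170, and at 48 h 1106, 1878, 1334 and 168. U266, MM.1s and KMS11 lay above all untreated arrays at each time, while 8226/S stayed under the untreated level of the others. The changes were 1.74 ± 0.34 (adjusted p = 0.00278), 1.35 ± 0.34 and 1.69 ± 0.34. Without KMS11 the calls at 6 and 48 h were lost, at 1.40 and 1.45. The 24 h call was also lost without U266 (1.38), MM.1s (1.29) or KMS11 (1.18), and with an offset of 1 (1.45).

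Under DAR, *GABARAPL1* went from 556, 507, 353 and 7.72 in control 1 to 702, 1200, 944 and 183 at 6 h. Its change of 1.35 ± 0.34 (adjusted p = 0.00941) included 2.53 in 8226/S, where the untreated value of 7.72 lies far below the array medians, and 0.32 in U266. Leaving out 8226/S gave 0.96 and leaving out KMS11 gave 1.35, and the call was lost in both. At 24 h the change of 0.42 ± 0.34 was not called (adjusted p = 0.615), and MM.1s was below its control at 226. The second probe set of the gene, also called at all 3 ATO times and at 6 h of DAR, gave 2.02, 1.69, 1.82 and 1.22. Its DAR call was lost without MM.1s or KMS11, its 6 h ATO call without KMS11, and its 24 h ATO call without U266, MM.1s or KMS11, with changes between 0.94 and 2.45.

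*GABARAPL2*, the third ATG8 gene, was called in none of the 5 treatments. Its intensities lay between 4053 and 8320 in control 2 and between 3441 and 7059 after 6 h of ATO, overlapping widely. All 4 lines were slightly lower at 6 h of ATO, by a fitted -0.22 ± 0.11 (adjusted p = 0.28). The 95% interval of -0.44 to 0.01 lies wholly below the intervals of *GABARAPL1* (1.03 to 2.44) and *MAP1LC3B* (0.76 to 1.42) at that time, a difference between genes that was not tested. Changes in the other 4 treatments ranged from -0.01 to 0.19.

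Of the initiation genes, *ULK1*, the starting kinase, was called at all 3 ATO times. Control 2 intensities were 398 in U266, 152 in MM.1s, 600 in KMS11 and 84 in 8226/S. After 6 h of ATO they were 746, 657, 702 and 255. The 8226/S control of 84 lies below the array medians of its set (111 to 147), so the change of 1.33 there is not exact. KMS11, already high, moved by 0.22, and MM.1s moved most, by 1.92. Changes were 1.08 ± 0.26 at 6 h (adjusted p = 0.0129), 1.01 ± 0.26 at 24 h and 1.09 ± 0.26 at 48 h. The 6 h call was lost without MM.1s (0.80) or 8226/S (1.00), the 24 h call without U266 (0.83), MM.1s (0.81) or KMS11 (1.18) and under median centring (0.97), and the 48 h call without MM.1s (0.93).

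Under DAR *ULK1* was above its control in 4 of 4 lines at both times without a call. It read 91, 155, 216 and 97 in control 1, 238, 175, 427 and 117 at 6 h, and 246, 241, 251 and 203 at 24 h. The 24 h values lie within a narrow band near the top of the untreated range or above it. The changes were 0.60 ± 0.26 (95% interval 0.06 to 1.14, adjusted p = 0.139) and 0.71 ± 0.26 (0.17 to 1.25, adjusted p = 0.204). Untreated *ULK1* read higher in control 2 in U266 and KMS11 and was nearly level in MM.1s and 8226/S, and the difference of 0.75 ± 0.35 between control sets was not called (adjusted p = 0.106).

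*WIPI1*, the lipid-binding protein of the early membrane, moved differently over time with ATO. Control 2 intensities were 3266, 1856, 1245 and 403 in the order U266, MM.1s, KMS11 and 8226/S. They were 1868, 1017, 741 and 456 at 6 h, 2296, 1262, 1265 and 368 at 24 h, and 3531, 1847, 2563 and 782 at 48 h. U266, MM.1s and KMS11 were lower than control at 6 h and had returned to it or passed it at 48 h, while 8226/S was level at first. At 6 h the change was -0.55 ± 0.19 (adjusted p = 0.0976) and at 48 h 0.51 ± 0.19 (adjusted p = 0.0938), neither called. Without 8226/S the 6 h change was -0.79 and was called lower.

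Between 24 and 48 h of ATO *WIPI1* rose in 4 of 4 lines by 0.80 ± 0.19 without passing the test (adjusted p = 0.306). In that comparison limma called 0 of 9 members and 0% of all genes, and 1 member and 983 genes had an unadjusted p under 0.05. The second *WIPI1* probe set was called higher at 48 h (0.68 ± 0.21, adjusted p = 0.045), a call lost without MM.1s, KMS11 or 8226/S, with 0.42 to 0.87 over the settings tried. DAR changes of *WIPI1* were -0.09 ± 0.19 and -0.06 ± 0.19.

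**Figure D3:**
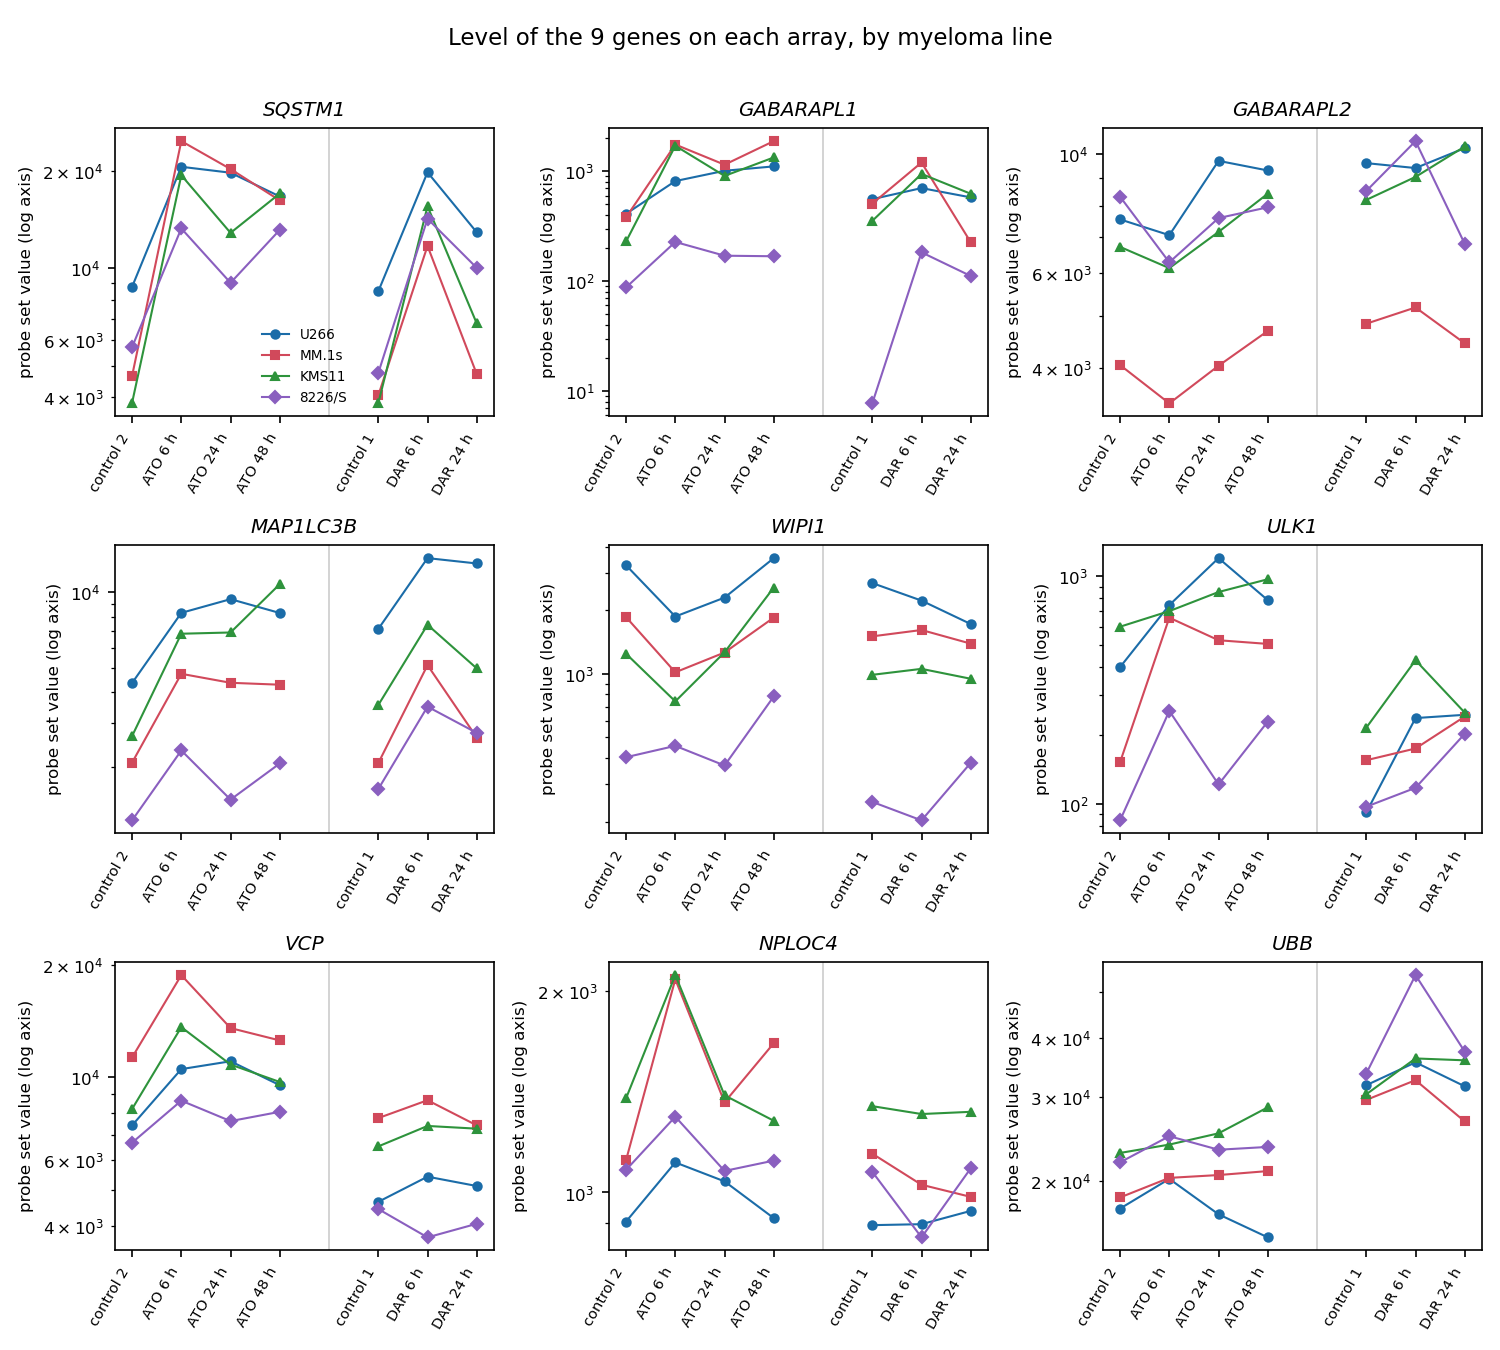
Array intensity (log axis) of the 9 genes, each read from its brightest probe set, in the control 2 set with ATO (left of each panel) and the control 1 set with DAR (right), 1 array per point and 1 colour per line. *SQSTM1* after 6 h of ATO (13270 to 24666) lies above all untreated arrays (3833 to 8764), and *VCP* and *UBB* start from different levels in the 2 control sets.

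Turning to ubiquitin handling, *VCP* rose with ATO early. Intensities were 7431, 11292, 8220 and 6680 in control 2 and 10506, 18748, 13612 and 8654 after 6 h, in the order U266, MM.1s, KMS11 and 8226/S. All 4 lines were higher, with MM.1s highest before and after. The change was 0.58 ± 0.10 at 6 h (adjusted p = 0.000485), a 1.5-fold rise. It was 0.35 ± 0.10 at 24 h (adjusted p = 0.0326) and 0.25 ± 0.10 at 48 h (adjusted p = 0.0907, not called). The 24 h call was lost without U266 (0.28), MM.1s (0.38) or KMS11 (0.34), and held in 7 of 15 alternative settings. The 6 h call held without each line. The second *VCP* probe set was called at 6 h of ATO (0.70 ± 0.14), a call lost without MM.1s or KMS11, with 0.58 to 0.87 over the settings tried.

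With DAR, *VCP* read 4641, 7773, 6530 and 4440 in control 1 and 5419, 8677, 7406 and 3729 at 6 h. U266, MM.1s and KMS11 were slightly higher and 8226/S lower, and the change of 0.08 ± 0.10 (95% interval -0.12 to 0.28) was not called. At 24 h it was 0.03 ± 0.10.

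*NPLOC4*, the cofactor, was also called at 6 h of ATO. Control 2 intensities were 905 in U266, 1118 in MM.1s, 1383 in KMS11 and 1081 in 8226/S, and 1109, 2083, 2113 and 1298 after 6 h. MM.1s and KMS11 moved most, and the groups overlap. The change of 0.51 ± 0.12 (adjusted p = 0.0141) was called, with 4 of 4 lines higher, and the call was lost without MM.1s (0.38) or KMS11 (0.47) and under median centring (0.48). At 24 and 48 h it was 0.12 ± 0.12 and 0.13 ± 0.12, and after 6 and 24 h of DAR -0.13 ± 0.12 and -0.04 ± 0.12, none of them called.

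*UBB*, the polyubiquitin gene, was called after 6 h of DAR and at no ATO time. It read 31786, 29604, 30421 and 33650 in control 1 and 35533, 32582, 36205 and 54302 after 6 h of DAR. U266, MM.1s and KMS11 moved by 0.14 to 0.25 and 8226/S by 0.69. The change of 0.31 ± 0.10 (adjusted p = 0.0354) was lost without MM.1s (0.37), KMS11 (0.33) or 8226/S (0.18), and held in 5 of 15 alternative settings. ATO changes were 0.15 ± 0.10, 0.09 ± 0.10 and 0.10 ± 0.10, and the difference between the arsenicals at 6 h was 0.16 ± 0.14 (adjusted p = 0.634). *UBB* also read 17446 to 22870 in control 2, below all control 1 values.

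The arsenicals were compared through the DAR change minus the ATO change, with doses that differ by line and control sets that differ by arsenical. At 6 h 0 of 9 members were called, beside 2.21% of all genes in either direction. An unadjusted limma p under 0.05 was found there for 3 members, beside 2421 of all 15437 genes. At 24 h 0 of 9 were called, beside 0.246%, and 2 members had an unadjusted p under 0.05, beside 1648 of all genes. The closest at 6 h were the ubiquitin-handling pair. *VCP* changed less with DAR by -0.50 ± 0.14 (95% interval -0.78 to -0.22, adjusted p = 0.0516) and *NPLOC4* by -0.63 ± 0.18 (-0.99 to -0.27, adjusted p = 0.0591), lower in 4 of 4 lines each. *MAP1LC3B* differed by 0.00 ± 0.23 (-0.47 to 0.47) and *SQSTM1* by -0.21 ± 0.27 (-0.76 to 0.35). At 24 h *SQSTM1* differed by -0.74 ± 0.27 (-1.30 to -0.18, adjusted p = 0.312), lower with DAR in 3 of 4 lines.

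8226/S was the one line that received both arsenicals at the same dose, 2 µM, with 1 array each and hence no test. At 6 h its *SQSTM1* change was 1.21 with ATO and 1.58 with DAR, and its *MAP1LC3B* change 0.91 and 1.08. *VCP* moved by 0.37 with ATO and -0.25 with DAR, and *NPLOC4* by 0.26 and -0.32. *UBB* moved by 0.18 and 0.69, *GABARAPL1* by 1.13 and 2.53, and *GABARAPL2* by -0.40 and 0.31. *ULK1* moved by 1.33 with ATO and 0.22 with DAR, and *WIPI1* by 0.17 and -0.26. The *ULK1* value of 1.33 rests on a control of 84, below the array medians of its set. The *GABARAPL1* value of 2.53 rests on the control of 7.72, and the second probe sets turned the order for that gene (0.74 with ATO and 0.37 with DAR) and for *WIPI1* (0.43 and 0.49). For *MAP1LC3B* and *VCP* the second probe sets kept it, at 0.50 and 0.63 and at 0.18 and -0.52. The second *GABARAPL1* probe set read 63 in control 2, 14 in control 1 and 26 after 6 h of DAR, below the array medians. Changes are understated there, so neither order is firm for that gene.

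Changes between times were tested within each arsenical. From 6 to 24 h of ATO 0 of 9 members were called, beside 0.46% of all genes. An unadjusted limma p under 0.05 was found for 3 members, beside 1660 of all 15437 genes. *NPLOC4* was lower at 24 h in 4 of 4 lines (-0.39 ± 0.12, adjusted p = 0.184) and *GABARAPL2* higher in 4 of 4 (0.30 ± 0.11, adjusted p = 0.257). From 6 to 24 h of DAR, besides the called drop of *SQSTM1*, *MAP1LC3B* was lower in 4 of 4 lines (-0.49 ± 0.16, adjusted p = 0.0664). *GABARAPL1* was lower in 4 of 4 as well (-0.93 ± 0.34, adjusted p = 0.101). These time comparisons leave out the untreated arrays.

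Before treatment the lines differed in 6 of the 9 genes (F test on the 8 untreated arrays), beside 51.7% of all genes. Mean untreated *GABARAPL1* was 483 in U266, 443 in MM.1s, 291 in KMS11 and 48 in 8226/S, where both untreated arrays read below their array's median, so that no fold is given. *WIPI1* followed the same order, 2978, 1680, 1117 and 325 (9.15-fold), and *MAP1LC3B* was 5739 in U266, 3102 in KMS11, 2079 in MM.1s and 1430 in 8226/S (4.01-fold). 8226/S was the lowest line for these 3 genes. For *SQSTM1* U266 was highest at 8627 and KMS11 lowest at 3839. *GABARAPL2* and *VCP* varied less (1.93-fold and 1.71-fold), while *ULK1* (adjusted p = 0.0691), *NPLOC4* (0.0905) and *UBB* (0.377) were not called. Among neighbours in these orders, U266 and MM.1s did not separate for *GABARAPL1*, whose untreated arrays overlap.

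Untreated arrays of the same lines also differed between the control sets, in 4 of 9 members beside 45% of all genes. *VCP* was higher in control 2 by 0.53 ± 0.10 and *WIPI1* by 0.39 ± 0.13, while *UBB* was lower by -0.65 ± 0.09 and *MAP1LC3B* by -0.38 ± 0.13. *SQSTM1* differed by 0.13 ± 0.10 and was not called. What separates the control sets is not in the labels, and its part in the differences between arsenicals was not tested. Each treatment was therefore read against its own set.

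Whether lines responded differently was tested with the times of a line standing in for replicates. For ATO and for DAR 0 of the 9 members were called, beside 0.11% and 0.0324% of all genes. An unadjusted limma p under 0.05 was found for 1 member in each, and the share of all genes at that level is not given here. Mean ATO changes of *SQSTM1* were 1.11 in U266, 2.10 in MM.1s, 2.06 in KMS11 and 1.02 in 8226/S (adjusted p = 0.406). For *GABARAPL1* the mean DAR change was 0.19 in U266 and 2.23 in 8226/S (adjusted p = 0.518). The 8226/S value rests on the control of 7.72, and the second probe set gave 0.37 and 0.60 there at 6 and 24 h. That probe set read 14 in control 1 and 26 and 36 at 6 and 24 h, below the array medians. The scale understates changes there, so its values do not show a smaller response. DAR dose and line cannot be told apart in this test.

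The surrounding pathway was read from 6 gene lists with 73 genes, of which 65 were tested. After 6 h of ATO 12 rose and 1 fell, after 24 h 13 rose and 0 fell, and after 48 h 26 rose and 1 fell. After 6 h of DAR 4 rose and 4 fell, near the 6.85% and 6.34% of all genes called higher and lower. After 24 h of DAR 0 were called (1 without MM.1s), beside 0.492% and 0.13% of all genes called higher and lower. At that time 10 of the 65 had an unadjusted limma p under 0.05, beside 2280 of all 15437 genes. Shares of all genes called higher at the 3 ATO times were 3.78%, 2.73% and 6.35%, and called lower 2.64%, 2.27% and 5.38%. The same shares stand behind the list counts below. Counts of risen genes at 6, 24 and 48 h of ATO moved with the lines included. They were 2, 0 and 11 without KMS11, 3, 4 and 13 without MM.1s, 12, 2 and 16 without U266, and 9, 14 and 24 without 8226/S. Calls over all genes moved as well, from 583, 422 and 981 higher with all lines. Without KMS11 they were 175, 106 and 282, and without MM.1s 246, 109 and 397. Without U266 they were 494, 157 and 616, and without 8226/S 437, 514 and 1056. Whether the lists depend on a line more than all genes do was not tested, here or for the single lists below. At 6 h of DAR 3 to 6 genes rose and 2 to 3 fell with a line left out, the 2 without U266. Under median centring the ATO counts were 5, 4 and 15, and without the line block 1, 0 and 0. At 6 h of DAR median centring gave 3 higher and 5 lower, and the fit without the block 0 and 1. Some list members are not analysed here, and list sizes below count the genes tested.

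Among 15 initiation and phagophore genes, 4, 2 and 5 rose at the 3 ATO times and 0 fell, with medians of 0.35, 0.24 and 0.29. At 6 h the risen genes were *ATG13*, a subunit of the ULK1 complex (0.89 ± 0.15, adjusted p = 0.000571), *WDR45*, a relative of WIPI1 (0.73 ± 0.19), *ATG9A*, which carries membrane (0.65 ± 0.17), and *PIK3C3*, the lipid kinase (0.45 ± 0.12). All but *PIK3C3* (3 of 4 lines) were higher in 4 of 4 lines. The *ATG13* call held without each line, at 0.82 to 0.94. The other 3 calls were each lost without MM.1s, KMS11 or 8226/S, at 0.60 to 0.81, 0.59 to 0.73 and 0.36 to 0.63. Under median centring the ATO counts were 2, 1 and 2, and without the line block 0 at all 3 times. At 6 h of DAR 3 of the 15 fell and 0 rose, with a list median of 0.01 (all genes 0.02), and 1 of the 15 differed between the arsenicals. *ATG2B*, a lipid transfer protein, fell by 1.18 on the log2 scale (-1.18 ± 0.18, adjusted p = 9.83e-05), and *PIK3R4* and *UVRAG*, partners of PIK3C3, changed by -0.73 ± 0.13 and -0.61 ± 0.17. The *UVRAG* call was lost without U266, MM.1s or KMS11 (-0.66 to -0.55). The gene that differed between the arsenicals at 6 h was *ATG2B* (-1.30 ± 0.25, adjusted p = 0.00694), and all 3 genes were higher again at 24 h than at 6 h of DAR, by 0.88 ± 0.18, 0.74 ± 0.13 and 0.63 ± 0.17 (adjusted p = 0.00312, 0.00113 and 0.0248). At 24 and 48 h of ATO the list's counts were 0 and 2 without KMS11, 1 and 2 without MM.1s, 1 and 3 without U266, and 1 and 4 without 8226/S.

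Of 12 ATG8 conjugation genes, 1, 1 and 3 rose at 6, 24 and 48 h of ATO and 1 fell at 6 h of DAR (6.34% of all genes). The 3 at 48 h were 1 without U266, MM.1s or KMS11 and 2 without 8226/S. Median centring gave 0, 0 and 1. *ATG4A*, a protease that trims ATG8 proteins, rose at 6 h of ATO (0.51 ± 0.15), a call lost without MM.1s, KMS11 or 8226/S (0.48 to 0.59). *ATG4C* of the same family fell at 6 h of DAR (-0.80 ± 0.20), a call lost without U266 or 8226/S (-1.02 to -0.59). Of 8 cargo receptors, 0, 3 and 5 rose with ATO, with medians of 0.26, 0.29 and 0.54. The counts at 24 and 48 h were 0 and 2 without KMS11, 0 and 3 without U266, 1 and 3 without MM.1s, and 2 and 5 without 8226/S. Median centring gave 2 and 3, and the fit without the line block 0 and 0. *BNIP3L*, a receptor for mitochondria, fell at 6 h of ATO (-0.64 ± 0.17), a call lost without U266, MM.1s or KMS11 (-0.86 to -0.56), and its change differed between the arsenicals (0.97 ± 0.24, adjusted p = 0.0337). With 6 h of DAR 2 receptors rose, *CALCOCO2* (0.92 ± 0.14, adjusted p = 0.000133) and *OPTN* (0.70 ± 0.21), the latter not without MM.1s, KMS11 or 8226/S (0.59 to 0.84).

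Of 12 lysosomal genes, 1, 5 and 9 were called higher at 6, 24 and 48 h of ATO and 0 lower, with medians of 0.32, 0.45 and 0.72. At 6 h the gene was *ATP6V0D1*, a proton pump subunit (0.39 ± 0.11), lost without U266, MM.1s or KMS11 (0.33 to 0.46). The 9 at 48 h, named here after their values were seen, include the proteases *CTSB* (1.05 ± 0.15), *CTSL* (1.15 ± 0.23) and *CTSD* (1.13 ± 0.25) and the lysosome gene factors *TFE3* (1.12 ± 0.23) and *TFEB* (0.71 ± 0.17). The *CTSL* call was lost without MM.1s (0.86 to 1.44), and the *CTSD* (0.79 to 1.37) and *TFEB* (0.53 to 0.89) calls without U266 or KMS11. The count of 9 was 6 without KMS11, 7 without MM.1s or U266 and 9 without 8226/S. The count of 5 at 24 h was 0 without U266 or KMS11, 2 without MM.1s and 6 without 8226/S. Under median centring the counts were 0, 0 and 8, and without the line block 0 at all 3 times. After 6 h of DAR 1 of 12 rose (6.85% of all genes). It was *TFEB* (1.12 ± 0.17, adjusted p = 0.000139), which was lower at 24 h than at 6 h (-0.68 ± 0.17, adjusted p = 0.0161).

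Of 16 VCP cofactors and partners, 6 rose and 0 fell at 6 h of ATO, with a median of 0.41. At 24 h 2 rose and at 48 h 4. *ZFAND2A*, which encodes AIRAP, an arsenite-inducible protein that binds the proteasome, had the largest change of the list, by 2.12 ± 0.15 (adjusted p = 3.02e-09). It was followed by *UBXN4* (0.71 ± 0.14), *NSFL1C* (0.64 ± 0.14) and *FAF2* (0.53 ± 0.13). The count of 6 was 1 without KMS11, 2 without MM.1s and 6 without U266 or 8226/S, and *ZFAND2A* kept its call without each line (2.00 to 2.23). The *UBXN4* call was lost without KMS11 (0.50 to 0.84), the *NSFL1C* call without MM.1s or KMS11 (0.43 to 0.79), and the *FAF2* call without U266, MM.1s or KMS11 (0.45 to 0.60). Without MM.1s or KMS11 the counts at 24 and 48 h were 0, without U266 1 and 2, and without 8226/S 4 at both times. Under median centring the counts at 6, 24 and 48 h were 3, 1 and 1, and without the line block 1, 0 and 0. With 6 h of DAR 1 of 16 rose (6.85% of all genes), again *ZFAND2A* (1.55 ± 0.15, adjusted p = 4.73e-07). *ZFAND2A* was lower at 24 h than at 6 h of ATO (-1.41 ± 0.15) and of DAR (-1.18 ± 0.15). Of the ubiquitin genes and ubiquitin-activating enzymes 2 were tested, and *UBA1* fell at 48 h of ATO (-0.38 ± 0.09), a call lost without MM.1s or KMS11 (-0.45 to -0.30).

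**Figure D4:**
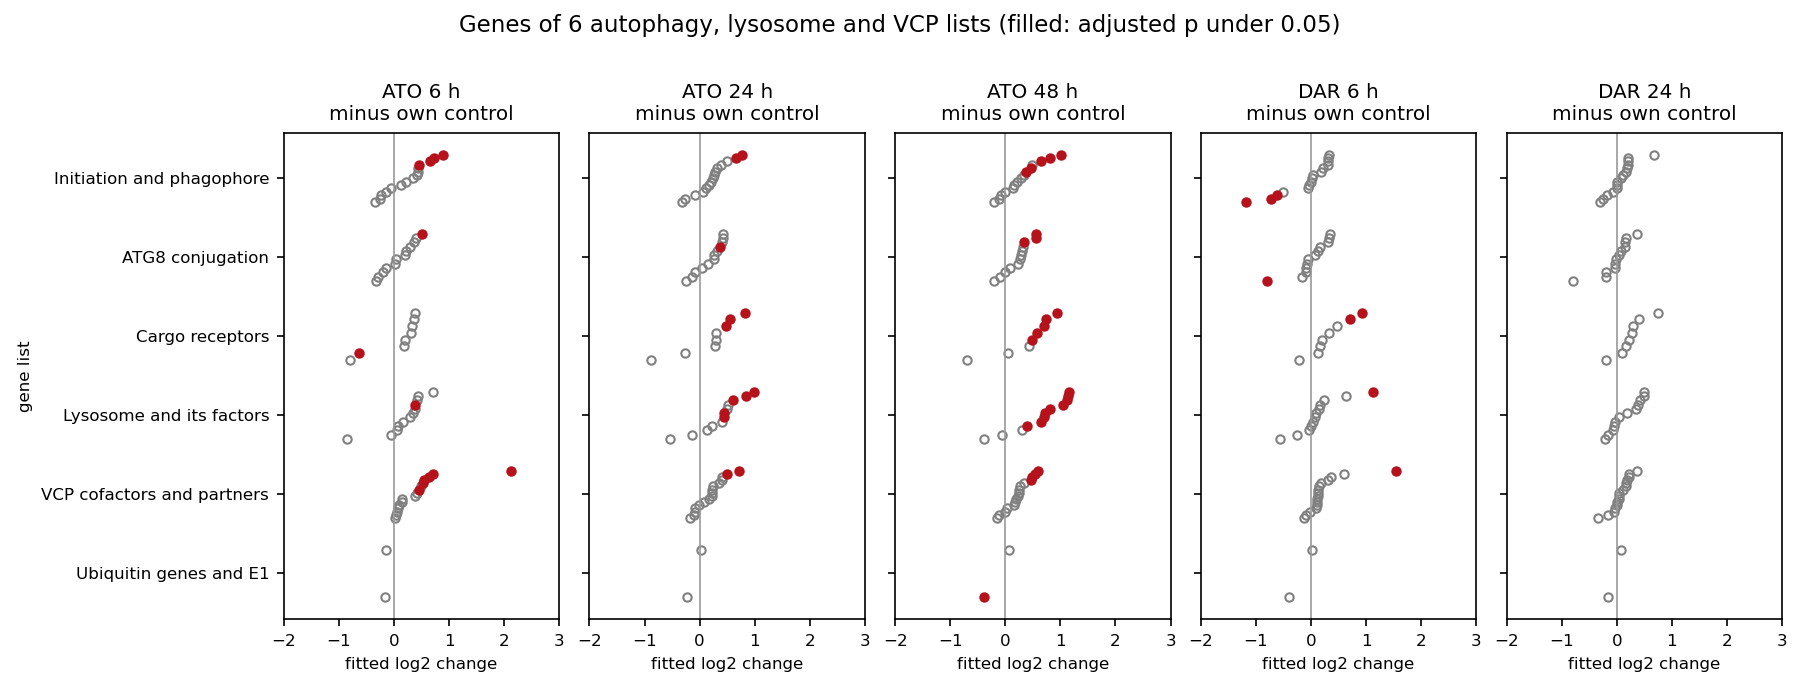
Fitted log2 change of each tested gene (circles) in 6 lists (rows) for the 5 treatments (panels), filled red where the adjusted p is under 0.05. Lysosomal genes shift to the right with ATO (9 of 12 called at 48 h), *ZFAND2A* stands alone at 2.12 and 1.55 at 6 h, and at 24 h of DAR no circle is filled.

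Genes whose 20 changes most resembled those of a member were listed as a description, by Pearson correlation over the 20 differences between treated and own untreated array. These points share control arrays, so no p is given. Closest to *SQSTM1* were *NABP1* (0.856), *BLOC1S2* (0.852) and *BACH1* (0.844), and *BACH1*, a repressor of oxidative stress genes, was also among the 3 closest to *MAP1LC3B* (0.796), after *SQOR* (0.805) and *LINC-PINT* (0.804). *GABARAPL1* lay closest to *SKIL* (0.885), *CBLL1-AS1* (0.862) and *RBM11* (0.855), and *ULK1* to *SMARCA1* (0.811), *DNPEP* (0.796) and *TMEM208* (0.783). *VCP* lay closest to the proteasome subunit gene *PSMB5* (0.88), *DNTTIP2* (0.86) and *EED* (0.848), and *NPLOC4* to *CCNC* (0.886), the proteasome subunit gene *PSMD14* (0.882) and *UBR3* (0.875). For the rest, *GABARAPL2* lay closest to *RENBP*, *SIDT2* and *FNTA* (0.77 to 0.785), *WIPI1* to *AIG1*, *FAHD2CP* and *BRD10* (0.744 to 0.77), and *UBB* to *PECAM1*, *PARD6G-AS1* and *HYKK* (0.786 to 0.817). Among the 36 pairs of members the highest were *SQSTM1* with *GABARAPL1* (0.80), *SQSTM1* with *MAP1LC3B* (0.766) and *VCP* with *NPLOC4* (0.737).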

How the data were processed

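Intensity values were produced by the authors with GCOS, per the submitters' processing notes (version: not given in the sources used here), and were deposited as 1 table of 28 arrays. The mean of each array without its top and bottom 2% was 500.1, and no further scaling was done. The platform annotation gives 41097 probe sets 1 symbol, 1801 several and 11777 none, with symbols updated through Entrez identifiers where RefSeq held them (41043). A gene is its brightest single-symbol probe set. Genes above the array's 50th percentile on 4 or more arrays were tested (15437 of 19775).

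Log2(value + 29) was fitted with limma 3.58.1 (R 4.3.3), with a baseline for each line in each control set, 5 treatment terms, 15 residual degrees of freedom and a variance trend. P-values were Benjamini-Hochberg adjusted over all genes, and intervals use the moderated degrees of freedom. The cell line pairs the arrays, and the fit holds it as a block. Fits were tested on simulated data. The alternatives were other offsets, no filter, other scalings, controls and probe-set rules, and each line left out.

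Members and lists were chosen with earlier results of these data known. From each list, up to 4 called genes with the smallest adjusted p after 6 h of ATO and after 6 h of DAR are named, and 3 alike genes per member. Some list genes are not reported here. Promoters are RefSeq's. The number of arrays limits the precision.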

Additional observations from a re-analysis of the deposited data

Results flagged for a closer look

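In 108 groups of 4 lines (levels of a member within a treatment, or its changes), 5 had 1 line set apart from the other 3 by more than Dixon's 95% critical value. Chance alone flags about 1 in 20, so the number flagged is near what chance gives. The groups share arrays and are not independent. In all 5 the line was 8226/S. Its *GABARAPL1* intensity was low in control 1 (7.722) and after 24 h of ATO (170.3), and its *ULK1* intensity was low after 6 h of ATO (255.5). Its *WIPI1* change after 6 h of ATO was 0.17 while the other lines lay between -0.85 and -0.73. Its *VCP* change after 6 h of DAR was -0.25 while the others lay between 0.16 and 0.22.

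A probe set outside the main reading, annotated to both *GABARAPL3* and *GABARAPL1* and therefore left out of the tests, was above its own control in 4 of 4 lines at 4 of the treatments. Its mean change was 2.75 (SD 1.05, n = 4) after 6 h of ATO, 1.98 (SD 0.29) after 24 h, 2.51 (SD 0.73) after 48 h and 1.29 (SD 0.96) after 6 h of DAR. The ATO means include 8226/S changes of 3.40, 1.89 and 2.46 taken against an untreated value of 5.02, far below the array medians, so those changes are not exact.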

How the results depend on the processing

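Across 15 alternatives, the 19 called member changes kept their direction in all 285 cases and their call in 233, and 52 fell below the threshold. *SQSTM1* after 6 h of ATO (1.23 to 1.98) and of DAR (1.31 to 1.70) kept its call in all 15. Without the replicate block, that is without line in the fit, called members were 1, 0 and 0 after 6, 24 and 48 h of ATO, 1 after 6 h of DAR and 0 for the drop from 6 to 24 h of DAR. Median centring or no variance trend gave 3 risen members at 24 h of ATO. Pooling the controls shifted the median of all genes by 0.14 to 0.20 after ATO and by -0.10 and -0.08 after DAR. It gave 1 risen member at 24 h of DAR, 2 higher and 3 lower members in the comparison of arsenicals at 6 h, and 1 higher and 4 lower at 24 h. There *UBB* reversed, to 0.62, from -0.03 uncalled. Arrays of one control set alone gave 1 risen member at 24 h of DAR and 2 lower members from 6 to 24 h of DAR. Means over probe sets gave 1 risen member (*SQSTM1*) at 24 h of DAR, 1 lower (*NPLOC4*) in the comparison at 6 h and 0 in the drop over time. Quantile normalization and probe sets as features each gave 1 lower member (*VCP*) in the comparison at 6 h. With 1 line left out, risen members ranged from 2 to 5 at 24 h of ATO and from 2 to 4 at 6 h of DAR, and fallen members from 0 to 1 at 6 h of ATO. Risen members were also lost at 6 h of ATO, *ULK1* and *NPLOC4* without MM.1s, *GABARAPL1* and *NPLOC4* without KMS11, and *ULK1* without 8226/S. At 48 h *ULK1* was lost without MM.1s and *GABARAPL1* without KMS11. Over all genes the fit without the block called 27 higher and 3 lower at 6 h of ATO, against 583 and 407, and 37 and 10 at 6 h of DAR, against 1057 and 979. Median centring called 491 higher and 914 lower at 48 h of ATO, against 981 and 831, and 225 higher at 24 h, against 422. Causes of these shifts were not tested. With 1 array per line and treatment, small changes of dim genes such as *GABARAPL1* in 8226/S are limited by signal over background.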
